A study of Temora longicornis with 12 samples.

Results

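In the small marine crustacean Temora longicornis, 116 assembled transcripts had levels in all 9 libraries of animals that had spent time at 17 °C that lay to the same side of all 3 libraries of animals kept at 14 °C. Of these, 80 were higher and 36 lower in the 9 warmed libraries. They were chosen from these very values, out of 44985 transcripts in the deposited table. A transcript had to average at least 1 CPM over the 12 libraries, which 31102 did. CPM (counts per 1000000 reads of a library) was computed after leaving out 1 very abundant transcript, TRINITY_DN157064_c6_g3_i1. The mean of the 9 warmed libraries also had to differ at least 1.5-fold from the mean of the 3 control libraries. Whole-body RNA of adult copepods was sequenced after 5 days. In the acute group, animals held at 14 °C for 4 days were moved to 17 °C for a final 24 h. Sustained animals were acclimated to 17 °C within 24 h and stayed at it. Recovery animals were warmed like the sustained ones and moved back to 14 °C for the final 24 h, so that "warmed" here means warmed at some time. The control group stayed at 14 °C. All animals were held in the dark with aeration, and of 4 replicates in each treatment 3 were sequenced. The number of animals in a replicate is not given in the sources used here.

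Copepods do not regulate their body temperature, so warming acts on every cell at once. In crustaceans as in other animals, a raised temperature is known to induce chaperones, which refold damaged proteins, and acclimation over days can differ from the first response. The question addressed is which transcripts stood on the same side of the controls after short warming, after long warming and after a return to the lower temperature. The table gives assembly identifiers without gene names, so none of the 116 is given a function or position, and no pathway list could be counted. Because whole animals were used, fewer cells of a type and less RNA per cell cannot be told apart.

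Libraries held 11582848 to 32504862 counted reads. The lowest total was that of control replicate 2, which also stood apart. Its median Spearman correlation with the other 11 libraries was 0.804 over the 31102 transcripts, against medians of 0.913 to 0.940 for the others. The transcript TRINITY_DN157064_c6_g3_i1 took 0.00387% to 53.1% of a library's reads, which is why it was left out of the totals. Results below are given with and without control replicate 2 where they rest on it.

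The 116 transcripts made up 0.373% of the 31102, with 0.257% higher and 0.116% lower in the warmed libraries. The same rule was then applied to the 3 libraries of each other group, set against their own remaining 9. For the acute group it gave 87 transcripts (0.28%) with the other 9 libraries higher and 67 (0.215%) with them lower, 154 (0.495%) in all. For the sustained group the numbers were 72 (0.231%) and 50 (0.161%), 122 (0.392%) in all, and for the recovery group 70 (0.225%) and 40 (0.129%), 110 (0.354%) in all. Read against these shares, the 116 of the control group are not a result about that group. At the 1.5-fold limit the 116 lay between the numbers of the sustained and recovery groups. That order was the same with scaling by trimmed means (TMM), which set apart 128, 108 and 83 transcripts in the acute, sustained and recovery groups and 102 in the control group. With DESeq2 size factors the numbers were 152, 135 and 109 in the acute, sustained and recovery groups and 119 in the control group. With totals that include the most abundant transcript the order changed, to 173, 36 and 474 in the acute, sustained and recovery groups and 73 in the control group. The median fold was 1.76, 1.83 and 1.85 for the acute, sustained and recovery groups and 2.00 for the control group. The place of the control group also depended on the fold limit. With no fold limit, the acute, sustained and recovery groups had 302, 209 and 173 transcripts set apart, and the control group had the fewest, 159. At 2-fold or more these groups had 41, 45 and 35, and the control group had the most, 58. The differences between these counts were not tested.

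**Figure D1:**
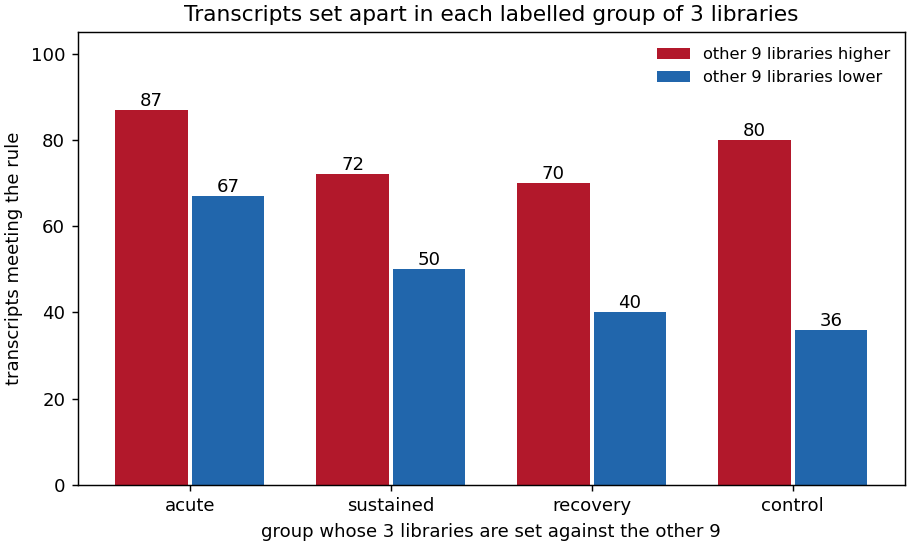
The bars count the transcripts whose level in all 3 libraries of a group lay below (red) or above (blue) every one of the other 9 libraries, with a mean of at least 1 CPM and a difference of at least 1.5-fold. The control group, on the right, has 80 and 36, inside the range of the other groups for the red bars and below it for the blue bars.

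The 80 transcripts higher after warming were mostly of low level. Their mean over the 12 libraries ran from 1.01 to 57.2 CPM with a median of 2.73 CPM, and 68.8% were under 5 CPM, against 50.1% of all 31102. The fold of the warmed mean over the control mean ran from 1.505 to 4.57 with a median of 2.06; 46 transcripts reached 2-fold and 8 reached 3-fold. Added together, the 80 took 526 ± 48.6 CPM in acute, 509.8 ± 31.0 CPM in sustained, 504 ± 17.0 CPM in recovery and 279.7 ± 96.9 CPM in control libraries (SD, n = 3 each). The sum was 168 CPM in control replicate 2 and 329 and 342 CPM in control replicates 1 and 3, a wide spread that lay mainly in that library.

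**Figure D2:**
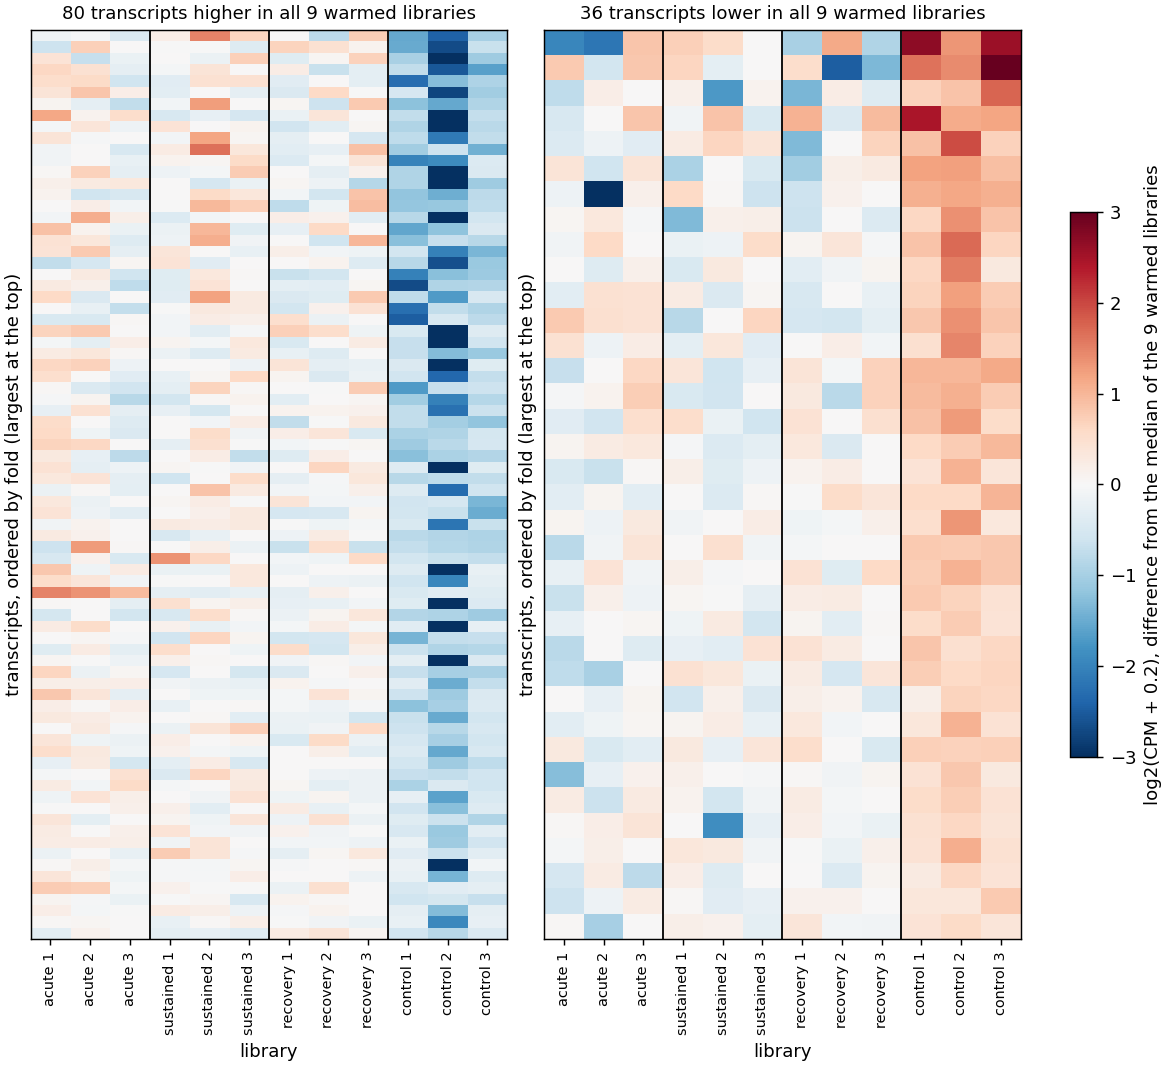
Each row is a transcript and each column a library; colour gives log2(CPM + 0.2) as a difference from the median of the 9 warmed libraries, cut off at 3 in either direction. The 80 transcripts on the left are lower in the 3 control columns, with the deepest blue in control replicate 2, and the 36 on the right are higher there.

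The widest gap between warmed and control libraries among these 80, on the scale log2(CPM + 0.2), was that of TRINITY_DN184103_c4_g2_i5. It was at 6.59, 7.93 and 4.31 CPM in the acute libraries, at 5.12, 8.31 and 6.73 CPM in the sustained libraries, at 4.07, 4.43 and 6.67 CPM in the recovery libraries and at 1.47, 2.66 and 2.97 CPM in the control libraries. All 9 warmed libraries were above the highest control, the nearest being recovery replicate 1, and the fold was 2.54 with all controls and 2.71 without control replicate 2. The second was TRINITY_DN183760_c0_g1_i1, with 1.58, 1.07 and 1.24 CPM in acute, 1.30, 1.49 and 1.22 CPM in sustained, 1.67, 1.17 and 1.15 CPM in recovery and 0.761, 0.808 and 0.358 CPM in control libraries. It was measured from only 17 to 31 reads in a warmed library and 15, 7 and 7 reads in the control libraries, and it did not meet the rule under TMM scaling.

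TRINITY_DN160666_c0_g1_i1 had 3.68, 3.84 and 1.59 CPM in acute, 1.93, 3.52 and 3.49 CPM in sustained, 1.93, 2.51 and 2.02 CPM in recovery and 0.355, 0.924 and 1.23 CPM in control libraries. Its 3.26-fold difference was among the 8 that reached 3-fold, although acute replicate 3 came close to control replicate 3. TRINITY_DN186874_c0_g4_i5 had tight controls at 0.862, 0.808 and 0.768 CPM, below 2.04, 1.82 and 1.65 CPM in acute, 1.13, 1.38 and 1.65 CPM in sustained and 1.47, 1.98 and 1.63 CPM in recovery libraries. Its fold was 2.02, and 2.01 without control replicate 2. For TRINITY_DN178584_c2_g4_i1 the group means were 6.47 ± 1.53 CPM in acute, 8.72 ± 3.03 CPM in sustained, 8.83 ± 1.60 CPM in recovery and 4.17 ± 0.299 CPM in control libraries (SD, n = 3 each), a fold of 1.92. Unlike these, TRINITY_DN181478_c3_g4_i1 depended in size on control replicate 2. It was at 13.5 ± 0.952 CPM in acute, 16.1 ± 0.457 CPM in sustained, 12.8 ± 0.531 CPM in recovery and 6.97 ± 3.70 CPM in control libraries, where the controls were 9.74, 2.77 and 8.40 CPM; the fold was 2.03 with all controls and 1.56 without control replicate 2.

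The largest fold of the 80, singled out after its value was seen, was 4.57 for TRINITY_DN138837_c0_g1_i1. It was at 1.85 ± 0.282 CPM in acute, 4.09 ± 2.04 CPM in sustained, 2.33 ± 1.28 CPM in recovery and 0.604 ± 0.371 CPM in control libraries (SD, n = 3 each), with 6.38 CPM in sustained replicate 2 as its highest value. The fold was 3.49 without control replicate 2.

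**Figure D3:**
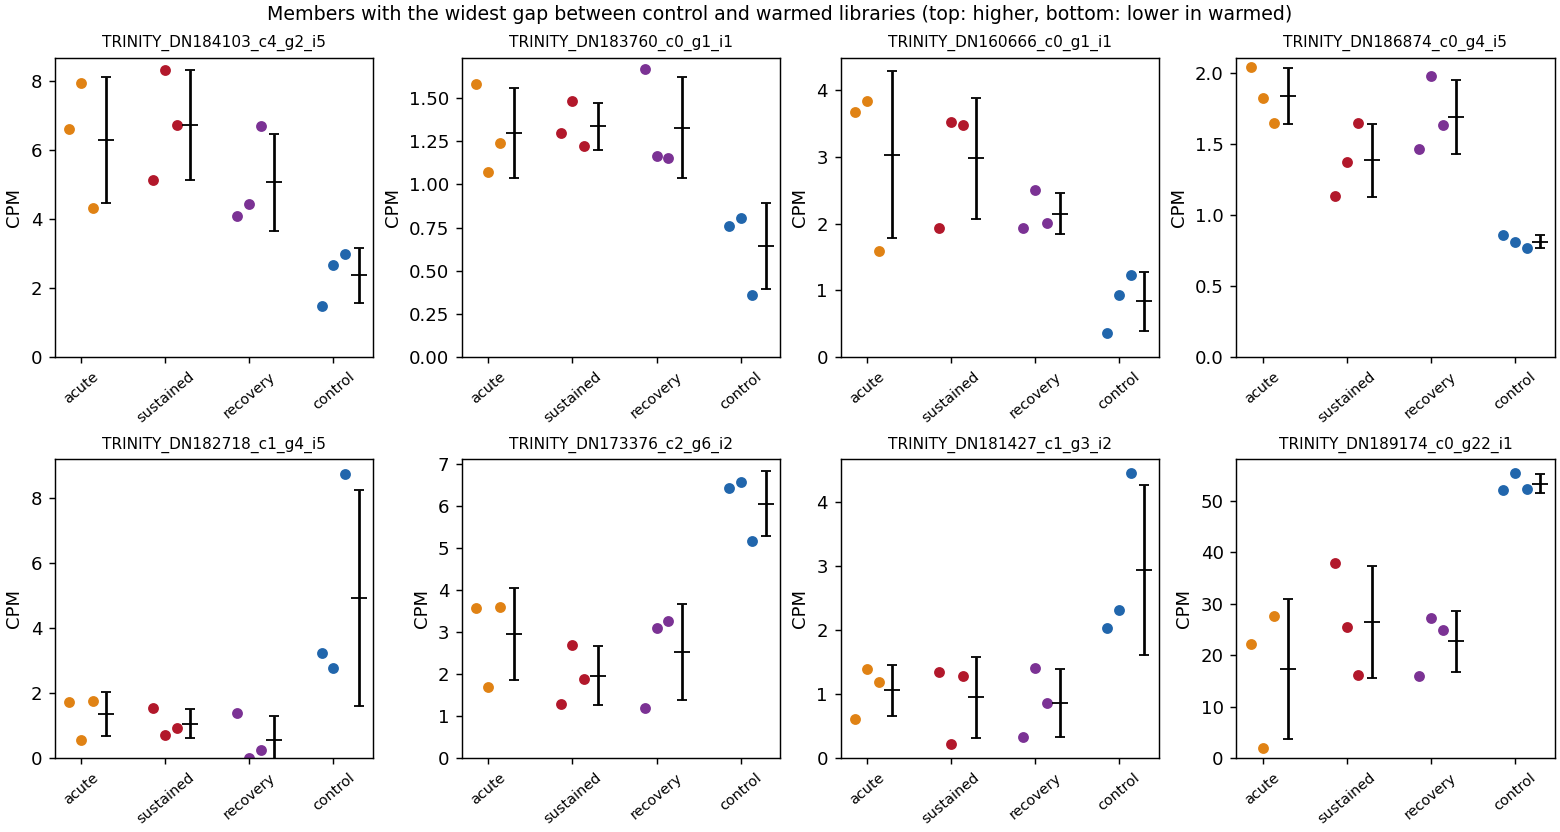
CPM on a linear axis from 0 in each library (coloured points) with the group mean and SD (black, n = 3) for the 4 transcripts of widest gap that were higher (top row) and lower (bottom row) after warming. In each panel the control points lie on one side of the other 9; TRINITY_DN189174_c0_g22_i1 has controls of 52.2 to 55.4 CPM and warmed values spread from 1.95 to 37.9 CPM.

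Of the 4 most abundant of the 80, 2 differed little from control replicates 1 and 3. TRINITY_DN174231_c6_g4_i2 was at 48.9, 49.8 and 47.5 CPM in acute, 40.9, 48.3 and 53.9 CPM in sustained, 46.9, 44.2 and 41.2 CPM in recovery and 40.8, 12.2 and 39.7 CPM in control libraries. Its fold of 1.52 became 1.16 without control replicate 2. TRINITY_DN184873_c0_g3_i3 likewise had warmed values of 28.0 to 33.3 CPM against 25.9, 3.23 and 28.0 CPM in control libraries, with a fold of 1.56 that was 1.10 without that library. The most abundant of all, TRINITY_DN183058_c2_g2_i1, was at 50.5, 68.9 and 63.3 CPM in acute, 51.5, 53.4 and 48.6 CPM in sustained, 75.4, 83.1 and 66.9 CPM in recovery and 42.2, 35.2 and 46.9 CPM in control libraries. Its fold of 1.505 was the smallest of the 116, and 1.40 without control replicate 2. The fourth, TRINITY_DN183951_c1_g24_i3, kept its fold, at 1.80 with all controls and 1.70 without control replicate 2. It had 21.1 ± 2.58 CPM in acute, 25.3 ± 7.57 CPM in sustained, 22.1 ± 7.11 CPM in recovery and 12.7 ± 1.503 CPM in control libraries.

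Across the 80, control replicate 2 was the lowest control in 51 (63.8%), against 35.7% of all 31102 transcripts. It lay more than 3-fold below each of the other controls in 25 (31.3%), against 8.21% of all, and 6 had a count of 0 there. Measured against control replicates 1 and 3 alone, 64 of the 80 still had a 1.5-fold higher warmed mean, 16 did not, and the median fold was 1.90. Among the 36 lower transcripts, control replicate 2 was the highest control in 23 (63.9%), against 46.1% of all; 27 of the 36 kept a fold of 1.5 without it, with a median of 1.66. The part of control replicate 2's lower depth and distinct profile in these differences was not tested.

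**Figure D4:**
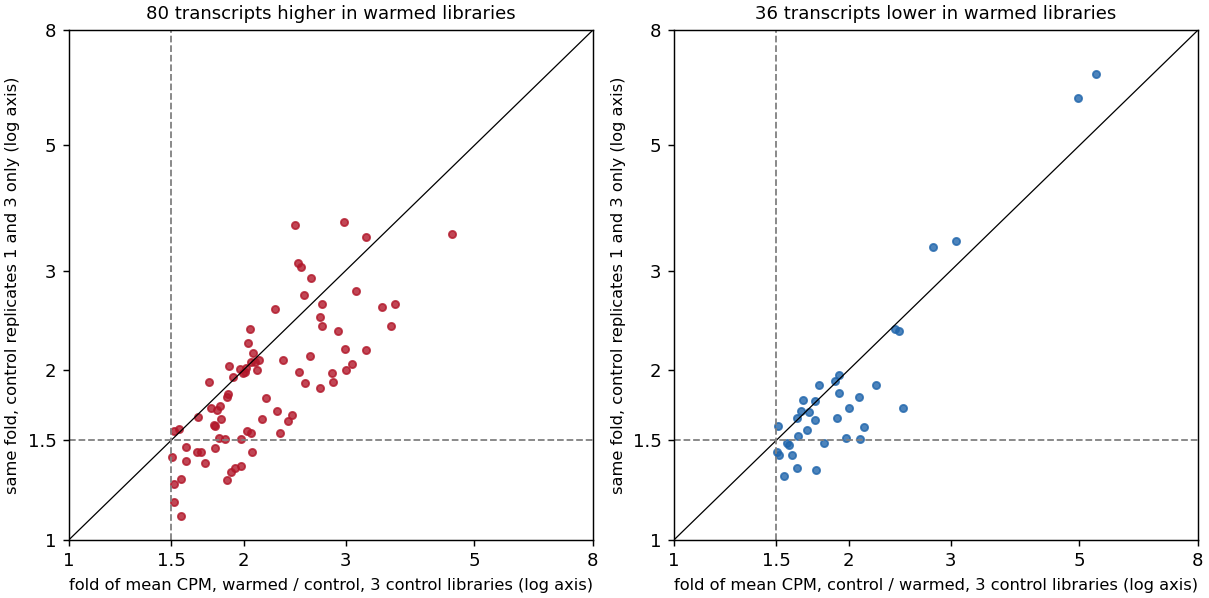
Each point is a transcript, with its fold of mean CPM over all 3 controls on the horizontal and over control replicates 1 and 3 alone on the vertical axis (both log axes; dashed lines at 1.5, solid line at equality). Left, 16 of the 80 higher transcripts lie below the dashed horizontal line; right, 9 of the 36 lower transcripts do.

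The 36 transcripts lower after warming had means of 1.01 to 29.9 CPM with a median of 1.93 CPM. The fold of the control mean over the warmed mean ran from 1.51 to 5.34 with a median of 1.79; 12 reached 2-fold and 3 reached 3-fold. Together they took 83.9 ± 19.4 CPM in acute, 95.4 ± 14.3 CPM in sustained, 93.5 ± 6.03 CPM in recovery and 185 ± 13 CPM in control libraries (SD, n = 3 each), with every warmed library between 66.4 and 110.5 CPM and every control between 174.9 and 199.4 CPM.

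By far the most abundant was TRINITY_DN189174_c0_g22_i1, at 22.2, 1.95 and 27.7 CPM in acute, 37.9, 25.5 and 16.1 CPM in sustained, 16, 27.2 and 24.8 CPM in recovery and 52.2, 55.4 and 52.3 CPM in control libraries. The controls were close together and the warmed libraries were not, with acute replicate 2 far below the rest. The control mean was 2.41-fold the warmed mean, and 2.36-fold without control replicate 2. The gap between sustained replicate 1 and the lowest control was 14.3 CPM, or 6.95 times its counting error, the widest of the 116 in that unit. Counting error leaves out the spread between replicates, which was larger (chi-square per degree of freedom of 11.5 to 36.8 within groups). In the edgeR test of the warmed mean against control, this transcript had an adjusted p of 0.99.

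TRINITY_DN173376_c2_g6_i2 was at 3.58, 1.70 and 3.60 CPM in acute, 1.30, 2.70 and 1.90 CPM in sustained, 1.20, 3.09 and 3.26 CPM in recovery and 6.44, 6.58 and 5.17 CPM in control libraries. Its controls were 2.45-fold above the warmed mean, with no warmed library above 3.60 CPM. TRINITY_DN182718_c1_g4_i5 was at 1.74, 0.566 and 1.77 CPM in acute, 1.55, 0.715 and 0.917 CPM in sustained, 1.40, 0 and 0.240 CPM in recovery and 3.25, 2.77 and 8.75 CPM in control libraries. It had the widest gap of the 36 on the scale log2(CPM + 0.2) and a fold of 4.98, to which control replicate 3 contributed most. TRINITY_DN181427_c1_g3_i2, with 1.06 ± 0.3996 CPM in acute, 0.949 ± 0.632 CPM in sustained, 0.865 ± 0.533 CPM in recovery and 2.93 ± 1.33 CPM in control libraries, was 3.06-fold lower in the warmed mean.

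TRINITY_DN190934_c1_g3_i1 had 4.05 ± 1.87 CPM in acute, 3.55 ± 1.30 CPM in sustained, 5.01 ± 1.31 CPM in recovery and 8.10 ± 0.474 CPM in control libraries, 1.93-fold lower in the warmed mean. TRINITY_DN182688_c3_g6_i2 had 2.48 ± 1.06 CPM in acute, 2.94 ± 0.697 CPM in sustained, 2.62 ± 0.0757 CPM in recovery and 4.68 ± 0.0723 CPM in control libraries, from 40 to 93 reads in a control library. Its recovery and control values varied less than counting error alone would give. TRINITY_DN181494_c2_g20_i2, with 8.48 ± 0.736 CPM in acute, 9.404 ± 1.53 CPM in sustained, 8.13 ± 0.954 CPM in recovery and 13.4 ± 3.77 CPM in control libraries, was 1.55-fold lower with all controls and 1.30-fold lower without control replicate 2, the highest at 17.8 CPM. TRINITY_DN188991_c1_g10_i1 was nearly at the 1.5-fold limit, at 4.77 ± 1.47 CPM in acute, 4.63 ± 0.653 CPM in sustained, 5.56 ± 0.283 CPM in recovery and 7.52 ± 1.42 CPM in control libraries, a fold of 1.51 that was 1.59 without control replicate 2. The largest fold of the 36, singled out after its value was seen, was 5.34 for TRINITY_DN177503_c1_g6_i3. Its values were 0.102, 0.0629 and 1.89 CPM in acute, 1.72, 1.54 and 0.979 CPM in sustained, 0.4, 2.39 and 0.432 CPM in recovery and 7.40, 2.77 and 6.76 CPM in control libraries.

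The gap that set a transcript apart was mostly narrow. It was measured as the distance between the warmed library and the control library nearest to each other, divided by the counting error (SD) of that distance. Counting error leaves out the spread between replicate libraries, so a gap of several counting SDs is not a test of separation. The median was 0.371 for the 80 higher and 0.473 for the 36 lower transcripts. In 102 of the 116 the gap was under 1 counting SD, and in 4 it was 2 or more. Those 4 were TRINITY_DN189174_c0_g22_i1, TRINITY_DN183951_c1_g24_i3 (2.43), TRINITY_DN181478_c3_g4_i1 (2.27) and TRINITY_DN173376_c2_g6_i2 (2.27). The warmed library nearest to the controls was acute replicate 3 in 16 of the 80 and recovery replicate 1 in 12; in the 36, each of these was the nearest in 7.

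**Figure D5:**
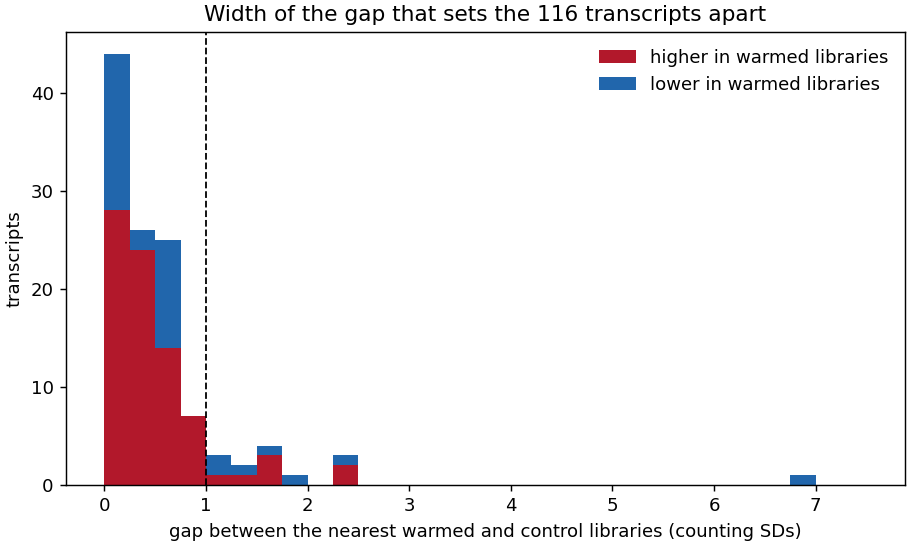
The histogram gives, for the 116 transcripts, the distance between the nearest warmed and control libraries in units of its counting SD (bins of 0.25; red, higher in warmed; blue, lower in warmed). Of the 116, 102 lie left of the dashed line at 1, and TRINITY_DN189174_c0_g22_i1 stands alone at 6.95.

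The transcripts just inside and just outside each limit of the rule were picked for lying close to it. On the gap, TRINITY_DN176369_c3_g9_i1 was inside with a lowest warmed value of 3.073 CPM against a highest control of 3.072 CPM, and TRINITY_DN184565_c1_g3_i2 was outside with 1.267 against 1.268 CPM. On the fold, TRINITY_DN183058_c2_g2_i1 was inside at 1.505, and TRINITY_DN183348_c0_g16_i1, lower after warming with 193 CPM on average, was outside at 1.499. On the mean level, TRINITY_DN186396_c3_g1_i1 was inside at 1.01 CPM and TRINITY_DN190140_c4_g1_i4 outside at 0.985 CPM.

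Scaling changed which transcripts met the rule and how many fell in each direction. The share of higher transcripts was 69.0% as given, 60.8% with TMM (62 higher, 40 lower) and 55.5% with DESeq2 size factors (66 higher, 53 lower). It was 1.37% when libraries were scaled by totals that include TRINITY_DN157064_c6_g3_i1 (1 higher, 72 lower); that scaling moved the median log2 difference of all transcripts to -0.13, against 0.03 as given. Of the 116, 78 met the rule in the same direction with TMM, 95 with DESeq2 size factors, 90 without control replicate 2 and 62 under all 3 of these settings (42 of the 80 higher and 20 of the 36 lower). Leaving out a control cannot undo the separation of the remaining libraries, so without control replicate 2 only the fold or mean limit could fail. The 62 include TRINITY_DN184103_c4_g2_i5, TRINITY_DN160666_c0_g1_i1, TRINITY_DN186874_c0_g4_i5 and TRINITY_DN183951_c1_g24_i3 among the higher and TRINITY_DN189174_c0_g22_i1, TRINITY_DN173376_c2_g6_i2 and TRINITY_DN182718_c1_g4_i5 among the lower.

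The mean of the warmed groups was set against the control group in a test across 40943 transcripts, the contrast from which the members were chosen. The quasi-likelihood test of edgeR called 0 transcripts at an adjusted p of 0.05 (0%); DESeq2 and limma voom with quality weights also called 0. At an unadjusted p under 0.05 there were 104 of the 116, and 1664 (4.06%) of all transcripts; since the same contrast chose the 116, nothing is read from that share. The lowest edgeR adjusted p among the 116 was 0.99.

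How the 3 warmed groups differed among themselves was not what the rule selected, although it kept all 9 libraries to one side of the controls. Here edgeR called 0 of 40943 transcripts for any difference among the acute, sustained and recovery groups, with 1321 (3.23%) at an unadjusted p under 0.05. Of the 116, 0 were called and 3 (2.59%) had an unadjusted p under 0.05, a share near that of all transcripts. DESeq2 called 15 transcripts and limma voom 0. For sustained minus acute, 5 of the 116 (4.31%) had an unadjusted p under 0.05, against 2044 (4.99%) of all. For recovery minus sustained it was 1 (0.862%, against 877 or 2.14%), and for recovery minus acute 2 (1.72%, against 1601 or 3.91%). The edgeR test called 0 (0%) in each of these pairs, where DESeq2 called 21, 9 and 1 and limma voom 0; of the 21 for sustained minus acute, 1 was among the 116. The median standard error of a difference between warmed groups over the 116 was 0.41 on the log2 scale in each pair, which limits the differences that 3 libraries a group could show.

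Among the 116, the 3 transcripts with the smallest p for any difference among warmed groups were all in the 80 higher ones. TRINITY_DN191068_c4_g2_i10 was at 5.93, 5.28 and 4.01 CPM in acute, 1.59, 1.54 and 1.65 CPM in sustained, 1.60, 2.21 and 1.97 CPM in recovery and 1.37, 1.501 and 1.48 CPM in control libraries. Only the acute libraries were well above the controls, and sustained replicate 2 exceeded the highest control by 0.0388 CPM. The log2 difference was -1.65 ± 0.30 (SE) for sustained minus acute and -1.39 ± 0.29 for recovery minus acute, with an unadjusted p of 7.2e-05 and an edgeR adjusted p of 1 for any difference; DESeq2 called it for any difference (adjusted p = 0.00089), the single one of its 15 calls that was among the 116, and for sustained minus acute (adjusted p = 0.00145).

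TRINITY_DN183058_c2_g2_i1, described above, was highest in the recovery group, with a log2 difference of 0.54 for recovery minus sustained (edgeR adjusted p = 1 for any difference). TRINITY_DN163154_c0_g3_i2 was highest in the sustained group, at 2.55 ± 0.676 CPM in acute, 5.30 ± 2.54 CPM in sustained, 3.46 ± 1.08 CPM in recovery and 1.89 ± 0.124 CPM in control libraries, with 8.05 CPM in sustained replicate 1 (log2 difference of 1.08 ± 0.38 for sustained minus acute, edgeR adjusted p = 0.937). Among the 36 lower transcripts the smallest p was that of TRINITY_DN182330_c2_g20_i2. It was at 2.25, 1.76 and 1.71 CPM in acute, 0.587, 1.21 and 2.02 CPM in sustained, 0.8, 0.757 and 0.960 CPM in recovery and 2.28, 3.46 and 2.30 CPM in control libraries, with the acute mean nearest to the controls and the recovery mean farthest from them, although sustained replicate 1 was the lowest library. Its log2 difference of recovery minus acute was -1.17 ± 0.43 (edgeR adjusted p = 1). TRINITY_DN193015_c0_g7_i2 was lowest in acute, with 3.08 ± 1.23 CPM against 5.28 ± 1.253 CPM in sustained, 4.74 ± 1.45 CPM in recovery and 7.23 ± 0.344 CPM in control libraries. TRINITY_DN180963_c1_g3_i1 had 1.27 ± 0.416 CPM in acute, 1.68 ± 0.562 CPM in sustained, 2.02 ± 0.327 CPM in recovery and 2.76 ± 0.362 CPM in control libraries. Neither passed edgeR's test for any difference (adjusted p = 1 for each).

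The 3 warmed group means were within 1.5-fold of each other in 67 of the 80 and in 27 of the 36, near the share of 78.8% among all 31102 transcripts. They were at least 2-fold apart in 4 (5%) and 2 (5.56%), against 4.86% of all. The median fold over the controls in the 80 was 2.11 for acute, 2.07 for sustained and 1.97 for recovery; in the 36, the controls were 1.88, 1.94 and 1.67 times the acute, sustained and recovery groups. Recovery had the lowest of the 3 warmed means in 36 of the 80 (45%, against 28.2% of all) and the highest in 11 (13.8%, against 31.3%). Sustained had the lowest in 20 (25%, against 38.2%) and the highest in 34 (42.5%, against 30.3%). Acute had the lowest in 24 (30%, against 33.6%) and the highest in 35 (43.8%, against 38.4%). For recovery minus sustained, the fitted log2 difference was negative in 55 of the 80 and positive in 25, with a median of -0.12 against 0.01 over all transcripts tested. In the 36, the highest of the warmed means was the one nearest to the controls. It was that of acute in 13 (36.1%, against 38.4% of all), of sustained in 10 (27.8%, against 30.3%) and of recovery in 13 (36.1%, against 31.3%). These counts describe transcripts measured in the same 12 libraries and carry no test.

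The 116 transcripts belonged to 114 Trinity gene identifiers, groups of transcripts that the assembler places together as likely isoforms or close variants. In 54 of the 116 (38 higher, 16 lower) the table held another transcript of the same identifier, 46.6% against 37.8% of all 31102. Other transcripts of these identifiers with a mean of at least 1 CPM that were not members numbered 38 for the higher set, of which 26 (68.4%) also had a higher warmed mean, against 54.1% of all transcripts. For the lower set, 12 of 18 (66.7%) also had a lower warmed mean, where 54.1% of all transcripts had a higher one. When all counts of an identifier were added up, the sum met the rule for 12 of the 38 higher members with other transcripts and for 2 of the 16 lower ones. The median fold of the sums was 1.53 for the higher and 0.704 for the lower, as warmed over control. Several members named above differed from their identifier. TRINITY_DN178584_c2_g4_i1 (35.6% of the counts, fold of the sum 1.18), TRINITY_DN191068_c4_g2_i10 (56.8%, 1.16) and TRINITY_DN163154_c0_g3_i2 (32.5%, 1.09) each had 1 other transcript, which went the other way. TRINITY_DN177503_c1_g6_i3 held only 4.84% of its identifier's counts, and the ratio of that sum was 0.742, warmed over control. How reads shared by such transcripts were counted is not given in the sources used here.

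Both identifiers with 2 members were among the higher. In TRINITY_DN184103_c4_g2, the members TRINITY_DN184103_c4_g2_i5 (above) and TRINITY_DN184103_c4_g2_i4 stood beside 3 more transcripts. TRINITY_DN184103_c4_g2_i4 was at 9.28 ± 0.268 CPM in acute, 10.2 ± 4.24 CPM in sustained, 8.16 ± 3.16 CPM in recovery and 4.87 ± 1.28 CPM in control libraries. TRINITY_DN184103_c4_g2_i1 and TRINITY_DN184103_c4_g2_i2 had 2.68-fold and 2.41-fold higher warmed means, but some warmed libraries were below the highest control. These were acute replicate 3 and sustained replicate 1 for TRINITY_DN184103_c4_g2_i1, and acute replicate 1 and recovery replicate 2 for TRINITY_DN184103_c4_g2_i2. TRINITY_DN184103_c4_g2_i3 was 1.19-fold higher with all controls and 1.90-fold without control replicate 2, where it stood at 7.39 CPM against 2.03 and 3.28 CPM in the other controls. The 5 together were at 24.2 CPM in warmed and 12.99 CPM in control libraries, a fold of 1.86.

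In TRINITY_DN183951_c1_g24, TRINITY_DN183951_c1_g24_i3 held 53.1% of the counts of its identifier. The other member, TRINITY_DN183951_c1_g24_i1, was at 7.81 ± 2.44 CPM in acute, 8.42 ± 2.01 CPM in sustained, 8.58 ± 1.21 CPM in recovery and 3.79 ± 1.51 CPM in control libraries (SD, n = 3 each). Its lowest warmed value, 5.02 CPM in acute replicate 3, was barely above the 4.97 CPM of control replicate 3. It did not meet the rule with TMM or with DESeq2 size factors. TRINITY_DN183951_c1_g24_i2 had a 1.59-fold higher warmed mean with overlapping libraries, and TRINITY_DN183951_c1_g24_i4 was at 2.55 ± 0.626 CPM in acute, 2.60 ± 0.411 CPM in sustained, 2.85 ± 1.02 CPM in recovery and 2.86 ± 1.51 CPM in control libraries, a ratio of 0.932. The sum of the 4 was 42.5 CPM in warmed and 24.8 CPM in control libraries, a fold of 1.71.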

How the data were processed

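RNA of whole adult copepods was sequenced as stranded poly(A) libraries with paired-end reads, per the labels' protocols. The authors deposited 1 table of unnormalized read counts for the assembled transcripts. HTSeq 0.6.1, TopHat2 2.1.1, edgeR and Trim Galore 0.4.1 appear in the submitters' processing notes with no roles; the assembly is not given in the sources used here. Groups follow the labelled treatments, and the tests set differences between group means against the spread between replicate libraries of a group. Chi-square per degree of freedom between libraries of a group was 11.5 to 36.8, above sampling noise, so no library repeated another of its group.

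Members were selected on CPM computed from the counts without TRINITY_DN157064_c6_g3_i1. The members, lists and tests were chosen with earlier results of these data known. Named were, in each direction, the 6 with the widest gap, the 4 most abundant, the 3 with the smallest p among warmed groups, members sharing an identifier, and those beside each limit. Tests used the quasi-likelihood method of edgeR 4.0.16 in R 4.3.3 (TMM, robust, default low-count filter, all 4 groups in one fit), with Benjamini-Hochberg adjustment over 40943 transcripts. The scripts were tested on simulated data. Standard errors are the log2 difference over the square root of F. DESeq2 1.42.0 and limma 3.58.1 (voom) were alternatives. Folds are ratios of mean CPM, except where a log2 difference is named.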

Additional observations from a re-analysis of the deposited data

How the results depend on the processing

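The counts of 80 higher and 36 lower transcripts moved with the limits of the rule: to 46 and 12 with a fold of 2, to 25 and 5 with a mean of 5 CPM, and to 142 and 68 with no mean level set. With totals that include the most abundant transcript they were 1 and 72. They stayed within 1.5 times with TMM (62 and 40), DESeq2 size factors (66 and 53), a mean of 0.5 CPM (118 and 52) and counts summed by Trinity gene identifier (67 and 26). Leaving out 1 library gave 85 to 486 higher and 42 to 274 lower transcripts. Fewer libraries make the rule easier to meet, most of all when a control is left out: 375 and 257 without control replicate 1, 361 and 83 without control replicate 2, 486 and 274 without control replicate 3. Among warmed libraries, the higher count moved most without acute replicate 3 (150, with 59 lower) and then without recovery replicate 1 (128), and the lower count without recovery replicate 3 (60). Without control replicate 2, the acute, sustained and recovery groups had 338, 139 and 133 transcripts set apart, where the control group had 444 from its 2 remaining libraries.

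DESeq2 called 21 transcripts for sustained against acute, 9 for recovery against sustained, 1 for recovery against acute and 15 for any difference among warmed groups, where edgeR called 0. Leaving out 1 library in edgeR gave 0 to 1 calls for sustained against acute and for the warmed mean against control, the 1 in each case without control replicate 2 (TRINITY_DN168648_c1_g1_i1 and TRINITY_DN188408_c1_g11_i1, neither a member), and 0 for the other comparisons. Other filters, RLE factors, limma voom and a fit of only the 9 warmed libraries also gave 0. For the 27 named members, the log2 difference of warmed from control moved by more than the control SD in 28 of 405 recomputed values; its sign is fixed by the selection when 1 library is left out and is no sign of stability. Low counts limit precision: the median count of a member in a library was 41. No paired analysis was possible because replicates were numbered in accession order and no label links libraries across groups.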
